A study of Mus musculus with 6 samples.

Results

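The pepsinogen genes Pga5 and Pgc, the intrinsic factor gene Cblif and the transcription factor gene Bhlha15 mark the zymogen-secreting chief cells of the stomach. They were followed in antral RNA of 3 mouse strains. Their probe sets were taken by symbol, as every probe set that the array's annotation assigns to 1 of these 4 genes. This gave 5 probe sets of 22626, and 4 genes of the 12393 with a probe set of their own. RNA of Satin, Beige and C57/BL6 (here BL6) mice was hybridised to Affymetrix expression arrays, 2 arrays for each strain and 6 in all. Satin mice are known for a mutation of Foxq1, a forkhead factor gene. Beige mice are known for a mutation of Lyst, a lysosomal trafficking gene. Beige and BL6 are both titled as controls. The series asks how gastric cell lineages relate to FOXQ1. The design speaks of 2 mice of each strain. No treatment is named. Age, sex and genetic background, any pooling, and whether the Satin mice also carry the Lyst allele could not be taken from the labels.

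Pepsinogens are inactive precursors of pepsins, the aspartic proteases that digest protein in gastric acid. Chief cells at the base of the gastric glands store them in granules and release them on cholinergic and hormonal signals. In the mouse, chief cells also make intrinsic factor, which carries cobalamin (vitamin B12) to its receptor in the ileum. BHLHA15, also called MIST1, is a basic helix-loop-helix factor that sets up the secretory granule apparatus of chief cells, and it works likewise in pancreatic acinar cells and in plasma cells. Chief cells are most numerous in the corpus of the stomach. Pgc is known from antral gland cells as well.

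Median signals were 74.15 and 58.6 in Satin, 49.5 and 49.0 in Beige and 47.6 and 38.2 in BL6, so levels were compared after log2(signal + 32) conversion and quantile normalization. The antral markers gastrin (Gast) and Pdx1 passed the filter on low signal (5.74 on the log2 scale) on every array, Gast at 10.18 to 12.22 and Pdx1 at 7.43 to 8.18. The proton pump genes Atp4a and Atp4b, which mark acid-secreting parietal cells, were also bright on all 6 arrays. The median of 18 enzyme and other markers of pancreatic acinar cells was higher on replicate 2 than on replicate 1 in all 3 strains. On the log2 scale it was 6.02 and 11.48 on Satin replicates 1 and 2, 6.67 and 9.01 on Beige replicates 1 and 2, and 6.05 and 12.74 on BL6 replicates 1 and 2. Results of the members that this touches are given below with and without the arrays concerned. With limma, 135 of 9395 genes differed between Satin and the mean of Beige and BL6 at an adjusted p under 0.05, 41 higher and 94 lower. This split turned to 1469 higher and 62 lower with the arrays as deposited, where the median of all genes was 0.43 higher in Satin, and to 46 and 46 with median centring. All directions below are therefore relative to the bulk of genes.

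**Figure D1:**
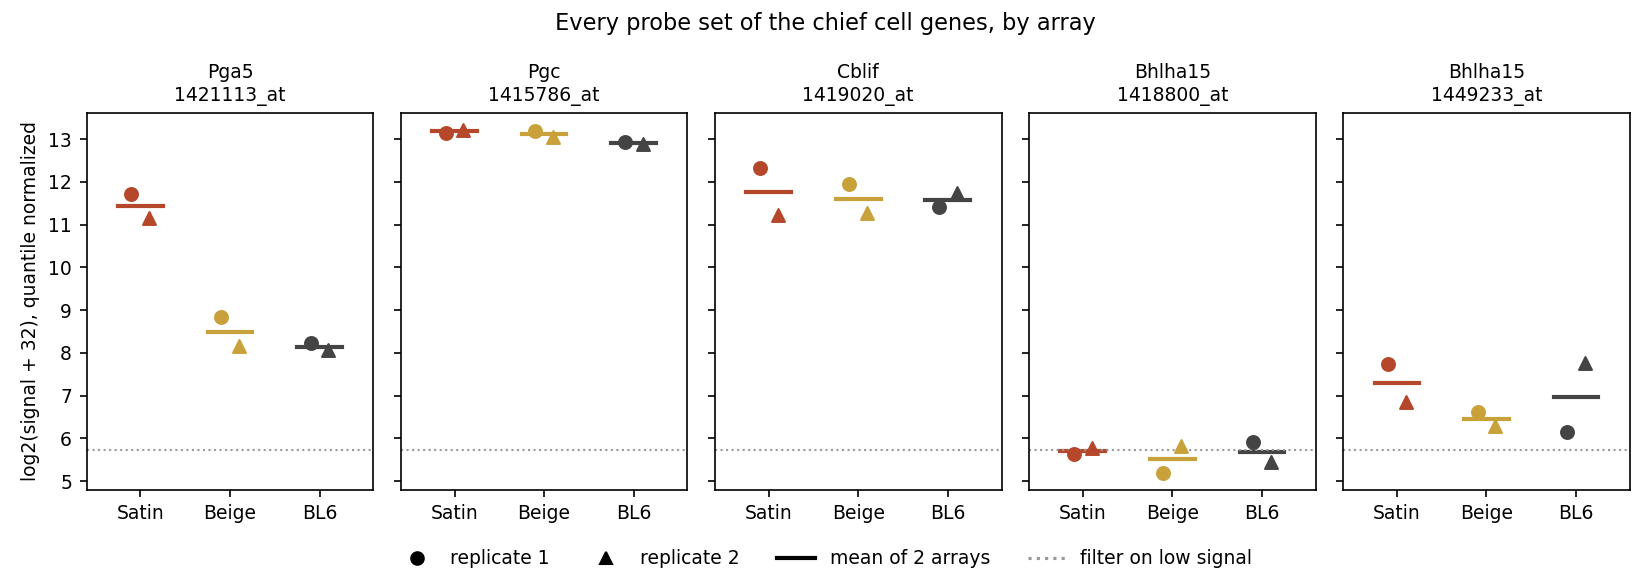
Level of each of the 5 probe sets on each array, as log2(signal + 32) after quantile normalization, for Satin, Beige and BL6. Circles are replicate 1, triangles replicate 2, and bars the mean of 2 arrays. The dotted line is the filter on low signal at 5.74. The Pga5 levels of Satin lie at 11.16 and 11.71, above all 4 other arrays, while the strains overlap for Cblif and for both Bhlha15 probe sets.

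Pga5, which encodes pepsinogen A5, was higher in the Satin antrum. Its deposited signal (probe set 1421113_at) was 3879 and 2797 in Satin, 358 and 276 in Beige, and 213 and 188 in BL6. Both Satin arrays were high, and the lower of them was 7.82 times the highest of the other 4. Mean signals were 3338 ± 765 in Satin, 317 ± 58.1 in Beige and 200.4 ± 17.4 in BL6 (SD, n = 2 each), and the Satin mean was 12.9 times that of the 4 other arrays. The normalized log2 levels were 11.71 and 11.16 in Satin, 8.84 and 8.15 in Beige, and 8.22 and 8.08 in BL6. On that scale Pga5 rose by 3.11 against the mean of Beige and BL6 (SE 0.22), an 8.66-fold difference with a 95% interval of 6.13 to 12.2 (limma, adjusted p = 0.000205). The difference was 3.55 with the arrays as deposited and 3.22 with 8 in place of 32 added before the logarithm, so both steps lower the fold relative to the ratio of the signals.

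Pga5 was the 1 member called of the 4, and both its Satin arrays exceeded all other arrays. Of all genes tested, 1.44% were called in either direction, 0.436% were called higher, and 11% had both Satin arrays above the other 4. Among the 41 genes called higher it ranked 6 by the size of the difference. Against Beige by itself the rise was 2.94 (SE 0.26, limma adjusted p = 0.000839, 0.883% of genes called). Against BL6 by itself it was 3.29 (SE 0.26, limma adjusted p = 0.000527, 0.745% of genes called). These comparisons share the Satin arrays. Pga5 differed by 0.35 between Beige and BL6 (SE 0.26, 95% interval -0.23 to 0.93, limma adjusted p = 0.878), and by limma 0 of 9395 genes, 0%, were called there, with 483 at an unadjusted p under 0.05.

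The rise was as large on the arrays with little pancreatic signal as on the others. On the replicate 1 arrays alone Pga5 was 3.18 higher in Satin than the mean of Beige and BL6, and on the replicate 2 arrays alone 3.05 higher, each a value with no test. Leaving out any array gave a rise of 2.871 to 3.391, with a limma adjusted p of at most 0.00367. In bulk RNA, more cells of a type and more transcript in each cell cannot be told apart.

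The ratio of the deposited Pga5 signal to that of Cblif on the same array does not depend on scaling between arrays. As log2, it was -0.53 and -0.05 in Satin, -3.28 and -3.33 in Beige, and -3.29 and -4.05 in BL6. The Satin ratios were 3.20 higher on average, so the Pga5 and Cblif signals changed unequally. The ratio was not tested.

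**Figure D2:**
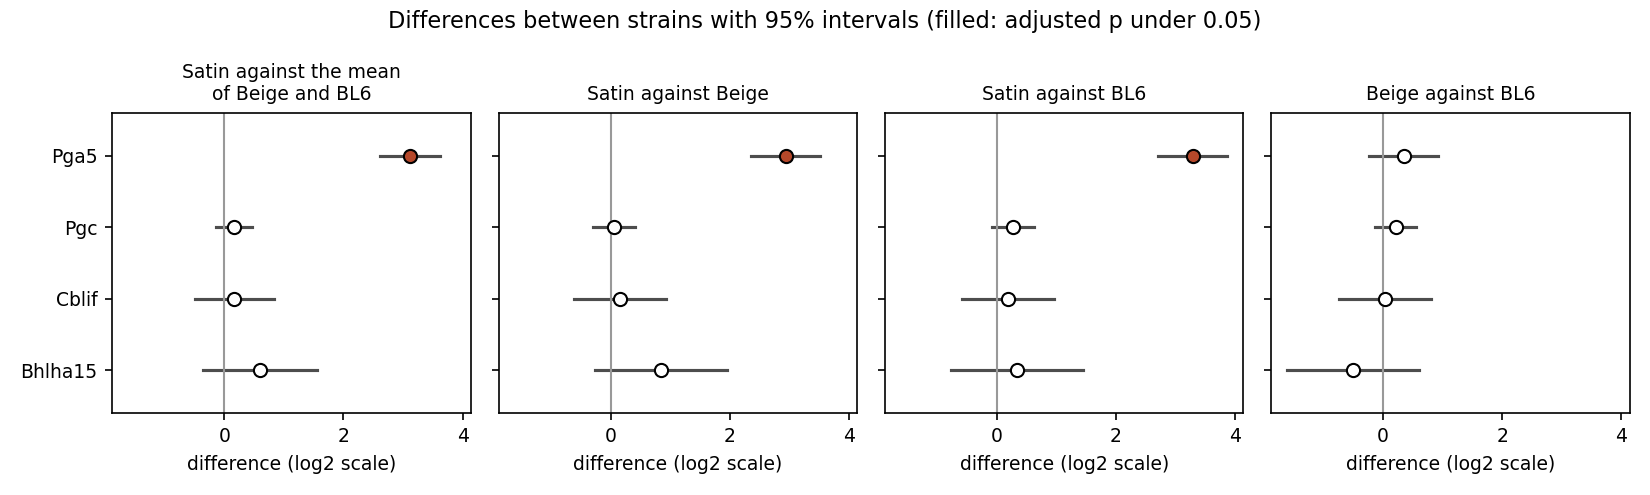
Differences between strains for the 4 genes on the log2 scale, the first-named strain minus the other, with 95% intervals from the limma fit. Filled points had an adjusted p under 0.05. Pga5 is the only gene with filled points, in the 3 comparisons with Satin, and every interval of Pgc, Cblif and Bhlha15 holds 0.

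Pgc encodes progastricsin, the other pepsinogen measured. Its signal (probe set 1415786_at) was 9123 and 9425 in Satin, 8829 and 8365 in Beige, and 6626 and 9323 in BL6. It was among the brightest probe sets throughout, at 91.5% and 96.3% of the highest signal on the Satin arrays, 91.8% and 88.9% in Beige, and 69.1% and 80.7% in BL6, where a difference can be understated. Normalized levels were 13.18 ± 0.04 in Satin, 13.12 ± 0.09 in Beige and 12.91 ± 0.04 in BL6 (SD, n = 2 each), and Satin and Beige overlapped. The difference of 0.17 between Satin and the mean of Beige and BL6 did not pass (SE 0.13, 95% interval -0.13 to 0.47, limma adjusted p = 0.685), and with median centring it was -0.16. So near the top of the range, a rise of the size seen for Pga5 could not have registered.

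Cblif, the intrinsic factor gene, varied as much within a strain as between strains. Its signal (probe set 1419020_at) was 5586 and 2891 in Satin, 3471 and 2771 in Beige, and 2077 and 3108.5 in BL6. Satin replicate 1 was the highest and Satin replicate 2, after normalization, the lowest of the 6. The normalized means were 11.77 ± 0.78 in Satin, 11.61 ± 0.48 in Beige and 11.58 ± 0.23 in BL6 (SD, n = 2 each), an order in which neighbours did not differ beyond their spread. The difference between Satin and the mean of Beige and BL6 was 0.17 (SE 0.30, 95% interval -0.50 to 0.84, limma adjusted p = 0.881). It was 0.63 on the replicate 1 arrays and -0.29 on the replicate 2 arrays, values with no test. Without Satin replicate 1 it was -0.38, and without Satin replicate 2 it was 0.74, with no call in either case.

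Markers of parietal cells are given beside Cblif. Atp4a, the catalytic subunit of the proton pump, had normalized levels of 12.70 and 11.94 in Satin, 12.15 and 11.60 in Beige, and 11.12 and 12.02 in BL6. In Satin and Beige, replicate 1 was the higher array for both Cblif and Atp4a, and in BL6 it was replicate 2. Atp4b, the other pump subunit, was also highest on Satin replicate 1, at 13.06, and ran from 12.13 to 12.60 on the other arrays. In BL6, unlike Cblif, Atp4b was higher on replicate 1 (12.31) than on replicate 2 (12.13). Some other parietal markers tested also ordered the arrays of a strain otherwise than Cblif did. Atp4a differed by 0.60 between Satin and the mean of Beige and BL6 (SE 0.29, limma adjusted p = 0.45) and Atp4b by 0.34 (SE 0.20, limma adjusted p = 0.54). Of 10 parietal cell markers tested all lay above 0 and 0 were called by limma, with a median difference of 0.47, beside a median of 0.00 over all genes. The smallest p were those of Slc4a2, an anion exchanger gene (0.93, limma adjusted p = 0.0795), and of Esrrg, a nuclear receptor gene (1.01, limma adjusted p = 0.202). Slc4a2 passed without Satin replicate 2 (0.0197) and Esrrg without BL6 replicate 2 (0.0461). As deposited, 5 of the 9 parietal markers tested there passed, among them Slc4a2 (0.00116), Esrrg (0.00802) and Atp4a (0.0324). In that setting the list had a median of 0.85, beside 0.43 over all genes, and 1531 of 9388 genes were called. The Atp4b difference was -0.01 without Satin replicate 1. The summed deposited signal of the list was 27247 and 19438 in Satin, 17042 and 17696 in Beige, and 12796 and 16084 in BL6. After normalization, Cblif on Satin replicate 2 was below its level on each of the other arrays, while Pga5 there was above its level on every Beige and BL6 array. The part of parietal cells in the Cblif levels was not tested.

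**Figure D3:**
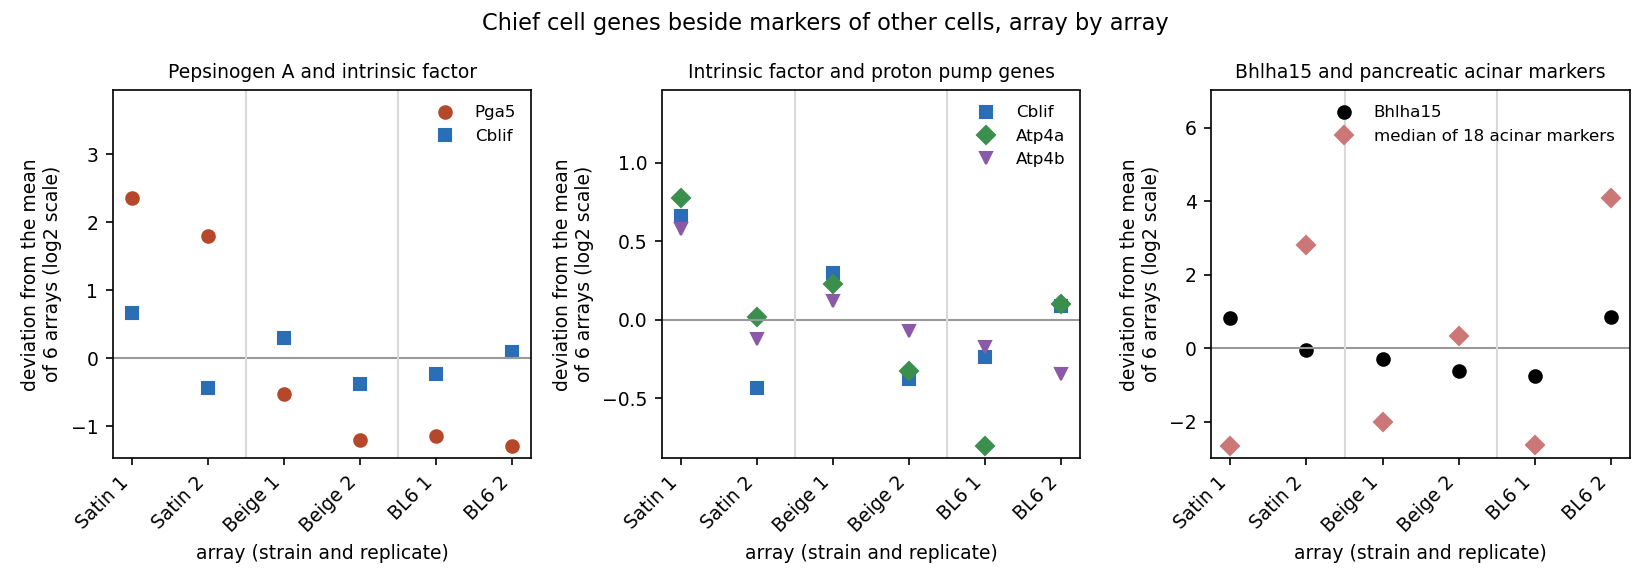
Deviation of each gene from its own mean over the 6 arrays, on the log2 scale, by array. The left panel shows Pga5 high on both Satin arrays, while Cblif is highest on Satin replicate 1 and lowest on Satin replicate 2. The middle panel shows Cblif with the proton pump genes Atp4a and Atp4b, and the right panel shows Bhlha15 with the median of 18 pancreatic acinar markers, which is high on replicate 2 of Satin and BL6.

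Bhlha15, the zymogenic factor gene, had a pair of probe sets. The brighter, 1449233_at, gave signals of 254 and 98.7 in Satin, 60.9 and 42.9 in Beige, and 36.5 and 145 in BL6. Satin replicate 1 and BL6 replicate 2 were high and the strains overlapped. Its normalized levels were 7.30 ± 0.63 in Satin, 6.45 ± 0.23 in Beige and 6.95 ± 1.15 in BL6 (SD, n = 2 each), an order of Satin, BL6 and Beige in which neighbours did not differ beyond their spread. The difference of 0.59 between Satin and the mean of Beige and BL6 did not pass (SE 0.42, 95% interval -0.36 to 1.55, limma adjusted p = 0.645). With the arrays as deposited it was 1.01 and did pass (limma adjusted p = 0.0476), in a setting where the median of all genes was itself 0.43 higher. The dimmer probe set, 1418800_at, had signals of 25.6 and 24.5 in Satin, 4.4 and 22 in Beige, and 27.1 and 8.5 in BL6. Its mean of 5.63 lay below the filter, and in a fit over every probe set, in which 0.446% were called, it differed by 0.10 (SE 0.27, limma adjusted p = 0.939).

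Markers of both other cell types that use Bhlha15 moved across these arrays. Carboxypeptidase A1 (Cpa1), an acinar enzyme, was at 5.34 and 12.11 in Satin, 5.09 and 9.92 in Beige, and 5.14 and 12.92 in BL6 on replicates 1 and 2. The summed signal of the 18 acinar markers was 14266 and 65903 in Satin, 15062 and 24591 in Beige, and 12992 and 130815 in BL6. That sum includes Clps, the colipase gene, which was bright on every array, at 13.15 to 13.27. By limma 0 of these 18 markers were called in Satin, with 9 above 0 and a median of 0.12 (-0.18 with median centring). The smallest p were those of Zg16, a zymogen granule gene, at -2.63 (limma adjusted p = 0.327), and of Ctrc, a chymotrypsin gene, at 2.01 (limma adjusted p = 0.68). Without Satin replicate 2, Zg16 was at -5.07 and Ctrc at -1.10. Zg16 passed as deposited (0.0408). Unlike Cpa1, Zg16 was bright on replicate 1 of Beige (11.41) and BL6 (11.11), and it was at 6.55 on Satin replicate 1. Satin replicate 1 had Bhlha15 at 7.74 with the acinar median at 6.02, and BL6 replicate 2 had it at 7.77 with the acinar median at 12.74. On the replicate 1 arrays, where the acinar medians were 6.02 to 6.67, Bhlha15 was 1.36 higher in Satin. On the replicate 2 arrays the difference was -0.18. Neither value has a test. Without BL6 replicate 2 the difference was 1.00 (limma adjusted p = 0.126), without Satin replicate 1 it was 0.14, and without Satin replicate 2 it was 1.01.

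Of 8 plasma cell markers, 2 rose in Satin and 6 did not pass, with a median difference of 0.25. Over all genes tested, 1.44% were called in either direction. As deposited 3 of the 8 passed and the median was 0.63, beside 0.43 over all genes, of which 1531 of 9388 were called. Igha, the immunoglobulin A heavy chain, rose by 3.34 (SE 0.33, limma adjusted p = 0.00142). Its levels were 10.60 and 10.46 in Satin, 6.02 and 6.17 in Beige, and 7.57 and 9.03 in BL6. The rise was 4.44 against Beige (limma adjusted p = 0.000839) and 2.23 against BL6 (limma adjusted p = 0.0405). Jchain, which joins immunoglobulin chains, differed by 2.39 from Beige (limma adjusted p = 0.033) and by 1.61 from BL6 (limma adjusted p = 0.136). Against the mean of Beige and BL6, Jchain rose by 2.00 (SE 0.35, limma adjusted p = 0.0263). That call was lost without Satin replicate 1 (0.123), Satin replicate 2 (0.094), Beige replicate 1 (0.132) or Beige replicate 2 (0.149), and without the filter (0.059), the trend (0.139) or with the mean of probe sets (0.0654). The summed signal of the list was 4710 and 5616 in Satin, 2058 and 1783 in Beige, and 1129 and 2358 in BL6. The part of plasma cells and of acinar tissue in the Bhlha15 levels was not tested.

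Other chief cell genes gave no call. Of 10 listed, 7 were tested, 0 were called by limma, 6 lay above 0, and the median difference was 0.28. As deposited 3 of the 7 passed, among them Dmbt1 (0.0227) and Lgr5 (0.0293), and the median was 0.69. Over all genes in that setting the median was 0.43 and 1531 of 9388 were called. Dmbt1 is also on the list of mucous neck and deep antral gland markers and is counted in both. Dmbt1, a secreted scavenger protein gene, differed by 0.78 (SE 0.27, limma adjusted p = 0.262), and passed without BL6 replicate 2 (1.02, 0.0174). It differed by 1.54 between Satin and Beige (limma adjusted p = 0.0714), by 0.02 between Satin and BL6 (limma adjusted p = 0.986) and by -1.52 between Beige and BL6 (limma adjusted p = 0.865). Lgr5, a receptor gene of gland base stem cells and of some chief cells, differed by 0.28 (SE 0.17, limma adjusted p = 0.566). Rab3d, a granule GTPase gene that BHLHA15 is known to drive, differed by 0.16 (SE 0.16, limma adjusted p = 0.751), with levels of 9.69 to 9.70 in Satin, 9.44 to 9.56 in Beige and 9.36 to 9.79 in BL6. Chia1, the acidic chitinase gene, lay near the top of the range at 12.85 to 13.05 on all arrays. Rnase1, listed here and also made by the pancreas, was at 7.67 and 11.70 in Satin, 7.11 and 9.30 in Beige, and 7.31 and 13.02 in BL6. Like the acinar median, it was higher on replicate 2 in each strain. Lipf, a gastric lipase gene, was below the filter. Rab3d, Chia1, Rnase1, Lipf, Cpa1 and Clps were named after their values were seen.

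Among other aspartic proteases, the relatives of pepsin, the probe sets of cathepsin E disagreed. Ctse encodes an intracellular aspartic protease found in gastric epithelium. Its brighter probe set, at 65.9% to 87.0% of the highest signal on every array, differed by 0.14 (SE 0.15, limma adjusted p = 0.788), and by -0.15 with median centring. The dimmer, 1427797_s_at, had signals of 903 and 627 in Satin, 59.7 and 47.3 in Beige, and 79.8 and 80.7 in BL6. Both Satin arrays were high, with normalized levels of 9.26 ± 0.28 in Satin, 6.48 ± 0.16 in Beige and 7.04 ± 0.09 in BL6 (SD, n = 2 each). In the fit over every probe set it rose by 2.50 (SE 0.19, limma adjusted p = 0.00185). The call was kept in 11 of 12 alternatives and lost without Satin replicate 1 (2.29, 0.0811). With the mean of both probe sets Ctse differed by 1.32 and passed (0.00366). The dimmer probe set was singled out after its values were seen. The suffix _s_at marks probes that can match several transcripts, and these probes were not checked here. By limma 0 of the 5 genes tested on this list were called, 3 lay above 0, and Ctsd, the lysosomal cathepsin D gene, differed by 0.15 (SE 0.16, limma adjusted p = 0.783).

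Genes of signals that drive or restrain chief cells gave 1 call in each direction. Of 7 such genes tested, 1 rose, 1 fell and 5 did not pass, with a median of 0.03. Over all genes tested, 1.44% were called in either direction. Grp, whose peptide releases gastrin, had levels of 8.30 and 7.94 in Satin, 6.78 and 6.89 in Beige, and 6.82 and 6.38 in BL6. It rose by 1.40 (SE 0.21, limma adjusted p = 0.0145). Gast, the gene of the acid-stimulating hormone itself, was at 10.18 and 11.08 in Satin, 12.07 and 12.22 in Beige, and 12.05 and 11.82 in BL6. Gast fell by 1.41 (log2 scale, SE 0.23, limma adjusted p = 0.0185). In both genes the Satin arrays lay apart from the other 4. The Grp call was lost without Satin replicate 1 (0.25), Beige replicate 1 (0.107) or Beige replicate 2 (0.0708), and that of Gast likewise (0.124, 0.143 and 0.136). Without the intensity trend neither passed (0.065 for Grp and 0.128 for Gast), and Gast also missed with median centring (0.0528) and without the filter (0.0519). Of the genes for chief cell receptors, Chrm1 and Chrm3 were below the filter. The cholecystokinin receptor gene Cckar differed by 0.07 (SE 0.49, limma adjusted p = 0.975). Its levels were 7.93 and 6.99 in Satin, 7.42 and 6.72 in Beige, and 6.72 and 8.70 in BL6. Cckar was thus highest on BL6 replicate 2, where the acinar median was also highest (12.74). For Cckar no value without that array is given. Chrm1, Chrm3 and Cckar were named after their values were seen.

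Genes of the granule apparatus and of cobalamin handling gave no call. Of 13 secretion and zymogenic factor genes 0 were called by limma and 5 lay above 0, with a median of -0.13. As deposited 3 of the 13 passed and the median was 0.30, below the 0.43 of all genes. In that setting 1531 of 9388 genes were called. Creb3l1, a secretory transcription factor gene, differed by 0.44 (SE 0.15, limma adjusted p = 0.254, 0.00924 as deposited), and Cplx2, an exocytosis regulator gene, by -0.83 (SE 0.29, limma adjusted p = 0.253). Of 10 genes of cobalamin uptake and use 0 were called by limma, 7 lay above 0 and the median was 0.05. Cd320, the cellular cobalamin receptor gene, differed by 0.54 (SE 0.22, limma adjusted p = 0.328, 0.017 as deposited) and Mtrr, which keeps methionine synthase active, by 0.64 (SE 0.35, limma adjusted p = 0.508). Cubn, Amn and Lrp2, genes for receptors of the ileum and kidney, were below the filter, and were named after their values were seen.

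Among 9 mucous neck and deep antral gland markers, 1 rose and 8 did not pass, with a median of 0.13. For this list and those below, the share called over all genes tested was 1.44%. The gene that rose was Bpifb1, a secreted gland protein gene, with levels of 11.71 and 9.64 in Satin, 6.86 and 6.26 in Beige, and 6.09 and 6.01 in BL6. Bpifb1 rose by 4.37 (SE 0.46, limma adjusted p = 0.00229). As deposited 3 of the 9 passed, all higher and Dmbt1 among them, and the median was 0.59. Over all genes in that setting the median was 0.43 and 1531 of 9388 were called. In the surface, antral, intestinal and muscle lists the genes called had all fallen. Of 7 surface mucous cell markers 1 fell (median -0.19), the mucin gene Muc5ac, at -4.35 (limma adjusted p = 1.26e-06). Of 7 antral markers 2 fell (median -0.01), Muc5ac again and Gast. The antral markers Tff1, Tff2, Gkn1 and Gkn2 lay near the top of the range on every array, at 12.82 to 13.29. A difference can be understated there, and the surface list shares Tff1, Gkn1 and Gkn2. They were named after their values were seen. Of 8 intestinal markers 2 fell (median -0.23), the fatty acid carrier gene Fabp2 at -4.62 (limma adjusted p = 4.9e-06) and the retinol carrier gene Rbp2 at -1.16 (limma adjusted p = 0.0472). As deposited the intestinal median was 0.25, below the 0.43 of all genes, and 1 marker passed higher and 1 lower. Of 8 smooth muscle markers 4 fell (median -0.96), the intermediate filament gene Des at -1.53 (limma adjusted p = 0.00758) and Tpm2, Smtn and Actg2 at -0.96, -0.89 and -0.97. With the arrays as deposited or with median centring, Des was the 1 of these that passed, and Rbp2 did not pass either. The calls of Rbp2 and of the 4 muscle genes were also lost without Satin replicate 1 (0.0704 to 0.441), Beige replicate 1 (0.0848 to 0.222) or Beige replicate 2 (0.0671 to 0.194), and those of Smtn and Actg2 without Satin replicate 2 (0.144 and 0.0628). None of these 5 passed without the intensity trend (0.0669 to 0.19), and with the mean of probe sets Smtn alone did. Without the filter on low signal Rbp2 (0.0893) and Actg2 (0.0792) did not pass, nor did Rbp2 with 8 added in place of 32 (0.0539). The part of these tissues in the levels of the 4 members was not tested.

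**Figure D4:**
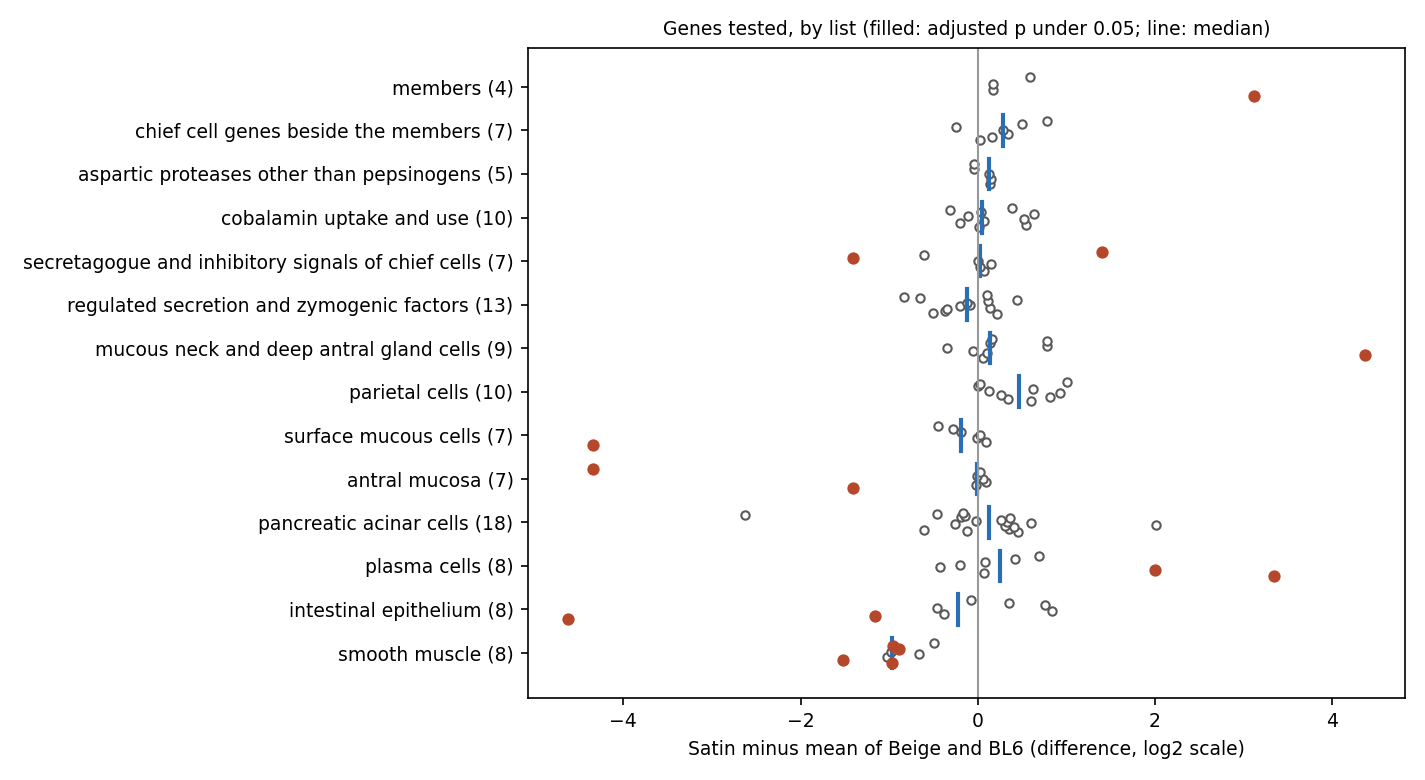
Difference between Satin and the mean of Beige and BL6, on the log2 scale, for each gene tested of the members and of 13 gene lists (number of genes in brackets). Filled points had an adjusted p under 0.05, and lines mark the median of a list. Pga5 is the filled point at 3.11 in the top row, while the other chief cell genes lie between -0.25 and 0.78.

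The genes whose profile over the 6 arrays was most like that of Pga5 were sought by the root mean square difference of the values, each gene's own mean subtracted. They were Cap1 (0.357), an actin regulator gene, Sdc4 (0.658), a syndecan gene, Rnase2a (0.693), a ribonuclease gene, Ces1g (0.696), a carboxylesterase gene, and Bpifb1 (0.738). Nearest to Cblif were Gga2 (0.103), a Golgi sorting adaptor gene, Rnf187 (0.122), Vps25 (0.128), Aplp1 (0.141) and Ldhb (0.155), a lactate dehydrogenase gene. Nearest to Bhlha15 were Slc3a2 (0.168), an amino acid transporter subunit gene, Ybx2 (0.217), Retreg1 (0.255), a reticulophagy receptor gene, Krtap12-1 (0.257) and Kcnj15 (0.258), a potassium channel gene. Each measure covers 6 arrays, and a gene that varies little is near others that vary little. Pgc spanned 0.33 and was not searched.

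None of the tested genes beside the members on their chromosomes was called. Pga5 and Cblif lie on chromosome 19, Pgc on 17 and Bhlha15 on 5, by the mouse gene table GRCm38.p6. Of the 10 tested genes nearest to Pga5, 5 on each side, 0 were called by limma in Satin against the mean of Beige and BL6. Their differences ran from -0.41 to 0.53, with a lowest adjusted p of 0.467. The 10 around Cblif ran from -0.34 to 0.19, those around Pgc from -0.34 to 0.41 and those around Bhlha15 from -0.19 to 0.49, with 0 called in each case.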

How the data were processed

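The authors deposited 22690 linear signal intensities per array. Per the labels' protocols, Trizol-extracted RNA was turned into biotin-labelled cRNA. How probes were summarized or scaled is not given in the sources used here, and no detection calls were used. Of the sample columns 0 were left unused, and the 15 pairs of arrays shared 35 to 88 equal values.

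Arrays were grouped by strain from their titles. The 64 control probe sets were kept for normalization and left out of all tests. Signals became log2(signal + 32) and were quantile normalized. Of 22626 probe sets, 20380 carried 1 gene symbol, 691 several, and 1555 were not listed. By gene ID 20351 were found in the GRCm38.p6 gene table, with 0 symbols to update. The brightest probe set stood for a gene, and genes with a mean in the lowest 30% were left out, leaving 9395, with all 4 members. limma 3.58.1 in R 4.3.3 fitted strain over 6 arrays (intensity trend, two-sided, Benjamini-Hochberg over all genes, called under 0.05, 3 residual and 9.24 moderated degrees of freedom). Only 2 arrays per strain limit the precision, and p-values measure the spread between arrays, which may be partly technical.

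The members and the 13 gene lists were chosen with earlier results of these data known. Named from each list were up to 4 called genes, otherwise the 2 genes with the lowest p, with Pdx1, Gast and the proton pump genes, and the 5 genes most like each member spanning at least 1. The fit was tested on simulated data. In all, 14 alternatives were tried.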

Additional observations from a re-analysis of the deposited data

How the results depend on the processing

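The rise of Pga5 in Satin kept its direction and its call in all 14 alternatives of each of the 3 comparisons with Satin. Against the mean of Beige and BL6 it ran from 2.865 to 3.553, with a limma adjusted p of at most 0.00832. Of 224 values of the 4 members, 211 kept direction and side of the threshold, 1 passed newly and 12 changed sign, none of them called. Bhlha15 passed with the arrays as deposited (1.012). With median centring, Pgc was -0.1581 against the mean of Beige and BL6, -0.1621 against Beige and -0.1541 against BL6, and Ctse was -0.1532. On the replicate 1 and replicate 2 arrays alone, chosen after seeing the data, Pgc differed by 0.09013 and 0.2443, and Bhlha15 by 1.361 and -0.1771.

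With 1 array left out, Cblif ran from -0.3799 to 0.7391 against the mean of Beige and BL6, from -0.398 to 0.7216 against Beige, from -0.3618 to 0.7566 against BL6, and from -0.3056 to 0.3815 in Beige against BL6. Bhlha15 ran from -0.4818 to 1.162 in Satin against BL6 and from -1.347 to 0.3136 in Beige against BL6. Atp4b ran from -0.009077, without Satin replicate 1, to 0.7281, and Ctrc from -1.099, without Satin replicate 2, to 5.116. The cause was not tested. A strain left with 1 array is assumed there to vary like the others.

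The number of genes called against the mean of Beige and BL6 was 135 (1531 as deposited, 36 without the intensity trend, 29 to 293 with 1 array left out). Against Beige it was 83 (191 as deposited, 52 with median centring, 49 without a filter, 37 on averaging probe sets, 18 without the trend, 9 to 147 with 1 array left out). Against BL6 it was 70 (1875, 45, 33, 22 and 12 in the same order, and 21 to 221). Beige against BL6 had 0 (3 as deposited, 0 to 9 with 1 array left out). The lowest counts came without Beige replicate 2, Beige replicate 1 and Beige replicate 1, and the highest without BL6 replicate 2.

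Arrays share only a replicate number, of which there are 2. Deviations of same-numbered arrays correlated at 0.19 (Satin and Beige), 0.27 (Satin and BL6) and 0.12 (Beige and BL6) across genes. With the replicate number as a block, Pga5 kept its rise of 3.115 (limma adjusted p = 4.51e-05), no member gained or lost a call, Actg2 lost its call (0.0636), and 123, 85, 48 and 0 genes were called in the 4 comparisons.

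Pgc, Chia1, Tff1, Tff2, Gkn1, Gkn2 and the brighter Ctse probe set lie near the top of the signal range. The dimmer Bhlha15 probe set lies near its bottom. Differences are understated at both ends. Detection calls were not used here.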
